A study of Homo sapiens with 27 samples.

Results

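The unfolded protein response and the ATF4 amino-acid response were followed through 34 genes, picked by name from the 57165 genes of the count table. They form 2 arms that were treated apart, an ATF4 arm of 21 genes and an ER chaperone arm of 13 genes, and each of the 34 matched 1 entry of the table. The RNA-seq table held 27 libraries in 9 groups of 3, from SUM159 and MDA-MB-231, established human triple-negative breast cancer cell lines of mesenchymal character. In the transduced groups a lentivirus delivered dCas9-KRAB, a catalytically inactive Cas9 joined to the KRAB repressor domain, and guide RNAs brought it to the promoter of ZEB1, a transcription factor of the epithelial-mesenchymal transition. The design asks what silencing ZEB1 does to the transcriptome of each line.

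SUM159 was sampled as wild type in run 1, wild type again in run 2, No gRNA (dCas9-KRAB without a guide), gRNA 4 (a single guide) and All gRNA (4 guides together). MDA-MB-231 was sampled as wild type, No gRNA and a pair of ZEB1-targeted groups whose labels conflict, since the titles name gRNA 4 where the column names say all guides and the reverse. These are called set 1 (gRNA 4 by title, all guides by column name) and set 2 (all guides by title, gRNA 4 by column name), and each is described on its own. Every transduced group, No gRNA included, carried the lentiviral vector and had been selected with puromycin, at 1.25 µg/mL in SUM159 and 0.75 µg/mL in MDA-MB-231, whereas wild type cells had neither. The titles number a group's 3 libraries as biological replicates and the methods speak of individual clones. Whether they came from 1 transduction is not given in the sources used here, and the p-values measure only the spread between them. SUM159 grew in F12 with insulin and hydrocortisone and MDA-MB-231 in high-glucose DMEM. Column names begin with B1 for SUM159, apart from its second wild type group, and with B2 for that group and for MDA-MB-231. The titles name run 2 for that second wild type group only. B1 and B2 are taken here as sequencing runs 1 and 2. Line, medium and run therefore cannot be told apart in the transduced groups. Libraries held 15461200 to 21473757 estimated counts.

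The line labels were checked against marker genes in the wild type libraries. The mesenchymal gene VIM stood at 3209.7, 3173 and 3328 CPM (counts scaled to the size of the library) in SUM159 run 1, 1743, 1764 and 1799 CPM in SUM159 run 2 and 2523, 2493 and 2462 CPM in MDA-MB-231, so that MDA-MB-231 was below one SUM159 group and above the other. CD44 stood at 556, 596 and 539 CPM, 262, 250.3 and 256 CPM and 1317, 1299.6 and 1256 CPM in the same order, highest in MDA-MB-231. ESR1, the oestrogen receptor, was at or below 0.184 CPM in the 9 wild type libraries, and PGR, the progesterone receptor, at or below 0.0930 CPM. The epithelial gene EPCAM averaged 12.3 CPM in MDA-MB-231 wild type and stood at 0, 0 and 0.0741 CPM in SUM159 wild type run 1. EGFR averaged 472 CPM in SUM159 run 1, 338 CPM in SUM159 run 2 and 448 CPM in MDA-MB-231. The luminal gene GATA3 was not absent, averaging 13.7, 11.4 and 3.02 CPM in the same order, and was higher in SUM159, where EPCAM was lower.

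When unfolded proteins gather in the endoplasmic reticulum (ER), 3 membrane sensors respond. IRE1 (gene ERN1) splices the XBP1 transcript and ATF6 is cut to release a transcription factor, and both raise the chaperones, folding enzymes and degradation factors of the ER. PERK (EIF2AK3) phosphorylates the translation factor eIF2alpha, as do the kinases that sense amino acid shortage, viral RNA and haem, and this slows protein synthesis while the ATF4 transcript is translated better. ATF4 then induces genes for amino acid synthesis and uptake, tRNA charging and, under lasting stress, growth arrest and death. ATF4 protein, eIF2alpha phosphorylation and XBP1 splicing were not measured here, and an mRNA level in bulk libraries cannot tell fewer expressing cells from less RNA per cell.

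ZEB1 was measured first, as the targeted gene. In SUM159 it stood at 70.8, 77.3 and 73.3 CPM in No gRNA, 4.56, 3.25 and 2.57 CPM in gRNA 4 and 0.812, 0.376 and 1.03 CPM in All gRNA. In MDA-MB-231 it stood at 74.1, 65.6 and 70.5 CPM in the wild type libraries, 105, 122 and 104 CPM in No gRNA, 4.75, 5.51 and 5.74 CPM in set 1 and 4.94, 3.71 and 5.43 CPM in set 2. Every ZEB1-targeted library lay below every No gRNA library of its line, and both MDA-MB-231 sets were at a like low level, with a difference of −0.18 ± 0.23 (SE) on the log2 scale between set 2 and set 1 (adjusted p = 0.528 in the limma fit). Below, a gene rose or fell where limma's moderated test against no change gave an adjusted p under 0.05, and it was called where limma's TREAT test, which asks for more than a 2-fold change, did so. Values after ± beside a log2 fold change are its standard error (SE) in that fit, with 3 libraries per group.

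**Figure D1:**
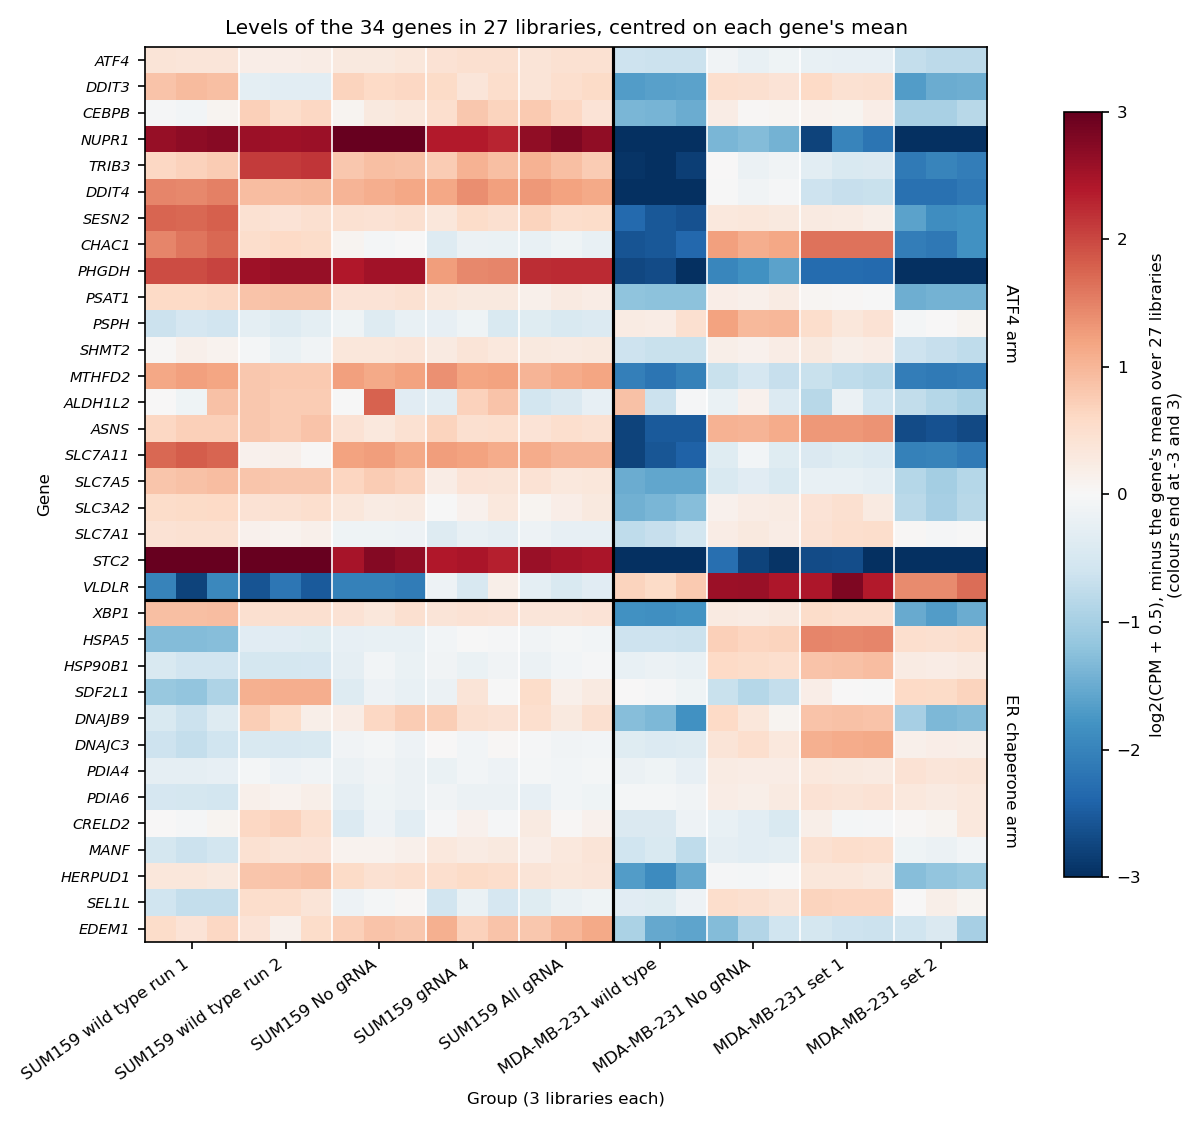
Levels of the 34 genes (vertical axis, ATF4 arm above the black line and ER chaperone arm below it) in the 27 libraries (horizontal axis, 3 per group), as log2(CPM + 0.5) minus the gene's mean over all libraries. In MDA-MB-231 most ATF4 arm genes are blue in wild type and set 2 and paler or red in No gRNA and set 1, whereas the SUM159 groups differ less among themselves.

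The ATF4 arm split the 4 MDA-MB-231 groups into pairs. In its tested genes other than PSPH, every No gRNA and set 1 library lay above every wild type and set 2 library, although both sets had lost ZEB1 alike. The share of all genes with this order was not counted. The distance varied, SLC7A1 averaging 223 CPM in wild type, 418 CPM in No gRNA, 495 CPM in set 1 and 352 CPM in set 2. Of the 20 ATF4 arm genes that could be tested, 20 rose in No gRNA against wild type, where 26.2% of all genes tested rose, and 13 were called higher, against 2.33% of all genes. In set 2 against No gRNA, 20 fell, where 25.1% of all genes fell, and 11 were called lower, against 2.40%. The median log2 fold change of the arm was 1.67 in the former comparison and −1.69 in the latter, beside medians over all genes of 0.0013 and −0.012. NUPR1 is counted in these numbers, the 13 and 11 called genes included. Its mean was 149 estimated counts in No gRNA and 67.8 in set 1, but 5.57 in wild type and 2.75 in set 2. Its part in the counts therefore rests on libraries at or near the floor of 3 estimated counts. ALDH1L2, a mitochondrial folate enzyme, was not tested in MDA-MB-231, where it stood between 0 and 1.28 CPM.

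ASNS, asparagine synthetase, was among the genes that moved most. It stood at 32.2, 38.2 and 38.4 CPM in the wild type libraries, 462, 453 and 479 CPM in No gRNA, 550.2, 544 and 565 CPM in set 1 and 34.2, 35.9 and 33.8 CPM in set 2. The No gRNA and set 1 libraries lay far above the others, and the wild type and set 2 libraries overlapped. ASNS was called higher in No gRNA against wild type, with a log2 fold change of 3.63 ± 0.064 (adjusted p = 6.46e-12, limma), and called lower in set 2 against No gRNA, with −3.72 ± 0.066 (adjusted p = 5.33e-12). Set 1 against No gRNA gave 0.26 ± 0.033 (adjusted p = 9.59e-05).

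CHAC1, which degrades glutathione and is a late target of ATF4 and CHOP, stood at 4.15, 4.28 and 4.99 CPM in the wild type libraries, 65.1, 58.8 and 61.6 CPM in No gRNA, 86.3, 86.4 and 85.9 CPM in set 1 and 6.13, 5.82 and 7.46 CPM in set 2. All set 1 libraries were above all No gRNA libraries, and both of these groups were above wild type and set 2. Its log2 fold change was 3.73 ± 0.11 in No gRNA against wild type (adjusted p = 3.6e-10, limma), 0.48 ± 0.054 in set 1 against No gRNA (adjusted p = 3.46e-05) and −3.24 ± 0.10 in set 2 against No gRNA (adjusted p = 5.11e-10).

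ATF4 binds composite sites that join a C/EBP and an ATF element, known as CARE or amino acid response elements. The 8 letters TGATGNAA were searched on both strands of RefSeq's promoter windows (250 bases before and 50 after the start site, GRCh38.p14), which matched 29 of the 34 genes. They were found in 4 of 16 ATF4 arm genes with a window (25.0%; CHAC1, ASNS, SLC3A2 and SLC7A1), in 1 of 13 ER chaperone arm genes (7.69%; HERPUD1) and in 3.62% of all 35116 windows. A gene was counted once if any of its windows held a match, so shares of genes and of windows are not like measures. SLC7A1, which holds a match, had the smallest change of the arm in set 2 against No gRNA. TRIB3, DDIT4, SESN2 and SLC7A11, called there and in No gRNA against wild type, are not among the genes with a match. The matches of the pair of genes just described are shown because, NUPR1 aside, these genes had the largest fold changes of the arm in both comparisons. Matching letters are in capitals, read 5′ to 3′ on the gene's strand. The ASNS match lies at −68 to −61 from the start site, in chr7:97872458-97872487 on the minus strand. The CHAC1 match, at −209 to −202 in chr15:40953251-40953280 on the plus strand, reads on the opposite strand and so appears as its reverse complement. A match describes letters only, and binding was not measured.
ASNS: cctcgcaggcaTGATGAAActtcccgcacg
CHAC1: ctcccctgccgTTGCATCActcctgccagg

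ATF4 itself, among the transcription factors of the arm, moved least in No gRNA against wild type and in set 2 against No gRNA. It stood at 311, 308 and 308 CPM in the wild type libraries, 448, 415 and 438 CPM in No gRNA, 412, 405 and 404 CPM in set 1 and 293, 279.9 and 282 CPM in set 2, so that wild type and set 2 were below No gRNA and set 1 without overlap. Its log2 fold change was 0.43 ± 0.031 in No gRNA against wild type (adjusted p = 3.67e-07, limma) and −0.58 ± 0.032 in set 2 against No gRNA (adjusted p = 4.85e-08), and it was called in neither. In set 1 against No gRNA it was −0.086 ± 0.030 (adjusted p = 0.0408), past the test by little, since it no longer passed on leaving out any of 5 of the 6 libraries (No gRNA replicates 1 and 3, and each of the 3 set 1 replicates), with adjusted p up to 0.150.

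DDIT3 encodes CHOP, the factor that links lasting ER stress to cell death. It stood at 8.74, 8.94 and 9.13 CPM in the wild type libraries, 41.5, 40.7 and 38.4 CPM in No gRNA, 44.2, 40.2 and 40.5 CPM in set 1 and 8.78, 9.94 and 10.2 CPM in set 2. Set 2 overlapped with wild type, and set 1 with No gRNA. DDIT3 was called higher in No gRNA against wild type (2.11 ± 0.088, adjusted p = 4.56e-09, limma) and called lower in set 2 against No gRNA (−2.04 ± 0.087, adjusted p = 6.88e-09), while set 1 gave 0.054 ± 0.063 (adjusted p = 0.534). CEBPB, a bZIP partner of ATF4 and CHOP, stood at 33.7, 33.1 and 31.0 CPM in the wild type libraries, 104, 91.1 and 92.7 CPM in No gRNA, 95.5, 94.2 and 101 CPM in set 1 and 44.8, 45.0 and 49.7 CPM in set 2, and it was called higher in No gRNA against wild type (2.83-fold) and fell in set 2 against No gRNA without being called (−1.02 ± 0.069).

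NUPR1, a small chromatin protein induced by stress, stood at 0.0596, 0.313 and 0.569 CPM in the wild type libraries, 8.21, 8.68 and 7.95 CPM in No gRNA, 2.83, 5.23 and 4.44 CPM in set 1 and 0.169, 0.166 and 0.158 CPM in set 2. The set 2 libraries were at the floor of 3 estimated counts, and so no fold change is given for set 2 or for No gRNA against wild type. Set 1 lay below No gRNA without overlap, with a log2 fold change of −1.02 ± 0.23 (adjusted p = 0.0044, limma).

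The 4 stress brakes and effectors, TRIB3, DDIT4, SESN2 and CHAC1, were each called higher in No gRNA against wild type and called lower in set 2 against No gRNA. TRIB3, a pseudokinase that restrains ATF4 and AKT, stood at 23.6, 22.9 and 25.4 CPM in the wild type libraries, 186, 162 and 172 CPM in No gRNA, 148, 134 and 136 CPM in set 1 and 41.7, 46.2 and 43.5 CPM in set 2. DDIT4, also known as REDD1, restrains mTORC1 and stood at 44.3, 42.1 and 42.7 CPM in the wild type libraries, 357, 338 and 354 CPM in No gRNA, 234, 224 and 227 CPM in set 1 and 76.5, 76.3 and 80.9 CPM in set 2. SESN2, which signals leucine shortage to mTORC1, stood at 8.16, 7.01 and 6.64 CPM in the wild type libraries, 53.3, 54.6 and 52.9 CPM in No gRNA, 52.2, 50.9 and 48.3 CPM in set 1 and 13.8, 11.4 and 11.9 CPM in set 2. For these 3 genes every set 2 library lay between the wild type libraries and the No gRNA libraries. The log2 fold changes of TRIB3 were 2.80 ± 0.085 in No gRNA against wild type and −1.96 ± 0.073 in set 2 against No gRNA. Those of DDIT4 were 2.97 ± 0.048 and −2.14 ± 0.041, and those of SESN2 were 2.83 ± 0.099 and −2.10 ± 0.085. In set 1 against No gRNA TRIB3 fell by 0.31 and DDIT4 fell by 0.61 on the log2 scale, neither being called, and SESN2 was at −0.082 (adjusted p = 0.328, limma).

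The serine and one-carbon enzymes moved with ASNS in No gRNA against wild type and in set 2, by smaller amounts. PHGDH, PSAT1, PSPH, SHMT2 and MTHFD2 each rose in No gRNA against wild type and fell in set 2 against No gRNA, where PHGDH, PSAT1 and MTHFD2 were called lower. PSAT1, the aminotransferase of the serine pathway, stood at 162, 160.2 and 161 CPM in the wild type libraries, 429, 419.6 and 443 CPM in No gRNA, 388, 384 and 375 CPM in set 1 and 135, 139 and 139.8 CPM in set 2. MTHFD2, the mitochondrial folate enzyme, stood at 73.1, 66.9 and 74.7 CPM in the wild type libraries, 191, 214 and 189.7 CPM in No gRNA, 192, 179.5 and 173 CPM in set 1 and 71.5, 69.7 and 72.5 CPM in set 2. Set 2 was below wild type for PSAT1 and overlapped wild type for MTHFD2. The log2 fold changes in set 2 against No gRNA were −1.62 ± 0.034 for PSAT1, −1.45 ± 0.069 for MTHFD2, −1.03 ± 0.088 for the serine phosphatase PSPH and −0.85 ± 0.044 for the serine hydroxymethyltransferase SHMT2. PHGDH, which opens the serine pathway, was low in MDA-MB-231, at 4.64, 4.83 and 3.29 CPM in the wild type libraries, 8.33, 9.20 and 10.7 CPM in No gRNA, 6.37, 6.38 and 6.30 CPM in set 1 and 1.53, 2.57 and 2.26 CPM in set 2, and its log2 fold change was −2.14 ± 0.22 in set 2 against No gRNA. PSPH stood at 48.5, 47.4 and 57.1 CPM in the wild type libraries, 93.9, 80.3 and 81.9 CPM in No gRNA, 58.4, 51.7 and 54.9 CPM in set 1 and 39.1, 41.1 and 43.2 CPM in set 2. In set 1 against No gRNA it gave −0.63 ± 0.083 (adjusted p = 0.000123, limma), with all 3 set 1 libraries below all 3 No gRNA libraries and overlapping wild type. PHGDH (−0.55) and PSAT1 (−0.17) fell there too, where ASNS rose.

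The amino acid transporters rose together in No gRNA against wild type and fell together in set 2, by unequal amounts. SLC7A11, the cystine and glutamate exchanger, stood at 41.6, 48.5 and 53.1 CPM in the wild type libraries, 224, 273 and 226 CPM in No gRNA, 214, 227 and 218 CPM in set 1 and 70.5, 71.9 and 66.2 CPM in set 2. It was called in both comparisons, with log2 fold changes of 2.28 ± 0.11 and −1.76 ± 0.099. SLC3A2, the heavy chain that SLC7A11 and SLC7A5 need at the membrane, stood at 151, 159 and 169 CPM in the wild type libraries, 445, 482 and 485 CPM in No gRNA, 546, 568 and 492 CPM in set 1 and 233, 204 and 229 CPM in set 2, and set 2 lay between wild type and No gRNA. SLC7A5, the large neutral amino acid carrier, fell by 0.47 in set 2 and the arginine carrier SLC7A1 fell by 0.23, the smallest change of the arm in that comparison. Neither was called, and in set 1 against No gRNA SLC7A5, SLC3A2 and SLC7A1 rose by 0.18, 0.19 and 0.25.

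VLDLR, a lipoprotein receptor induced through ATF4, stood at 13.4, 12.7 and 14.7 CPM in the wild type libraries, 51.6, 52.6 and 47.1 CPM in No gRNA, 46.8, 61.5 and 45.3 CPM in set 1 and 23.0, 23.1 and 27.5 CPM in set 2, with set 2 between wild type and No gRNA. It was called higher in No gRNA against wild type (1.83 ± 0.14) and fell in set 2 without being called (−1.02 ± 0.12). STC2, a secreted glycoprotein, was at low levels in MDA-MB-231, at 1.69, 0.416 and 0.683 CPM in the wild type libraries, 7.23, 4.96 and 4.35 CPM in No gRNA, 5.34, 5.35 and 2.87 CPM in set 1 and 1.40, 0.212 and 0.595 CPM in set 2, and its fall in set 2 had a wide error (−3.15 ± 0.62, adjusted p = 0.00119, limma) and was called by edgeR and DESeq2 but not by TREAT.

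**Figure D2:**
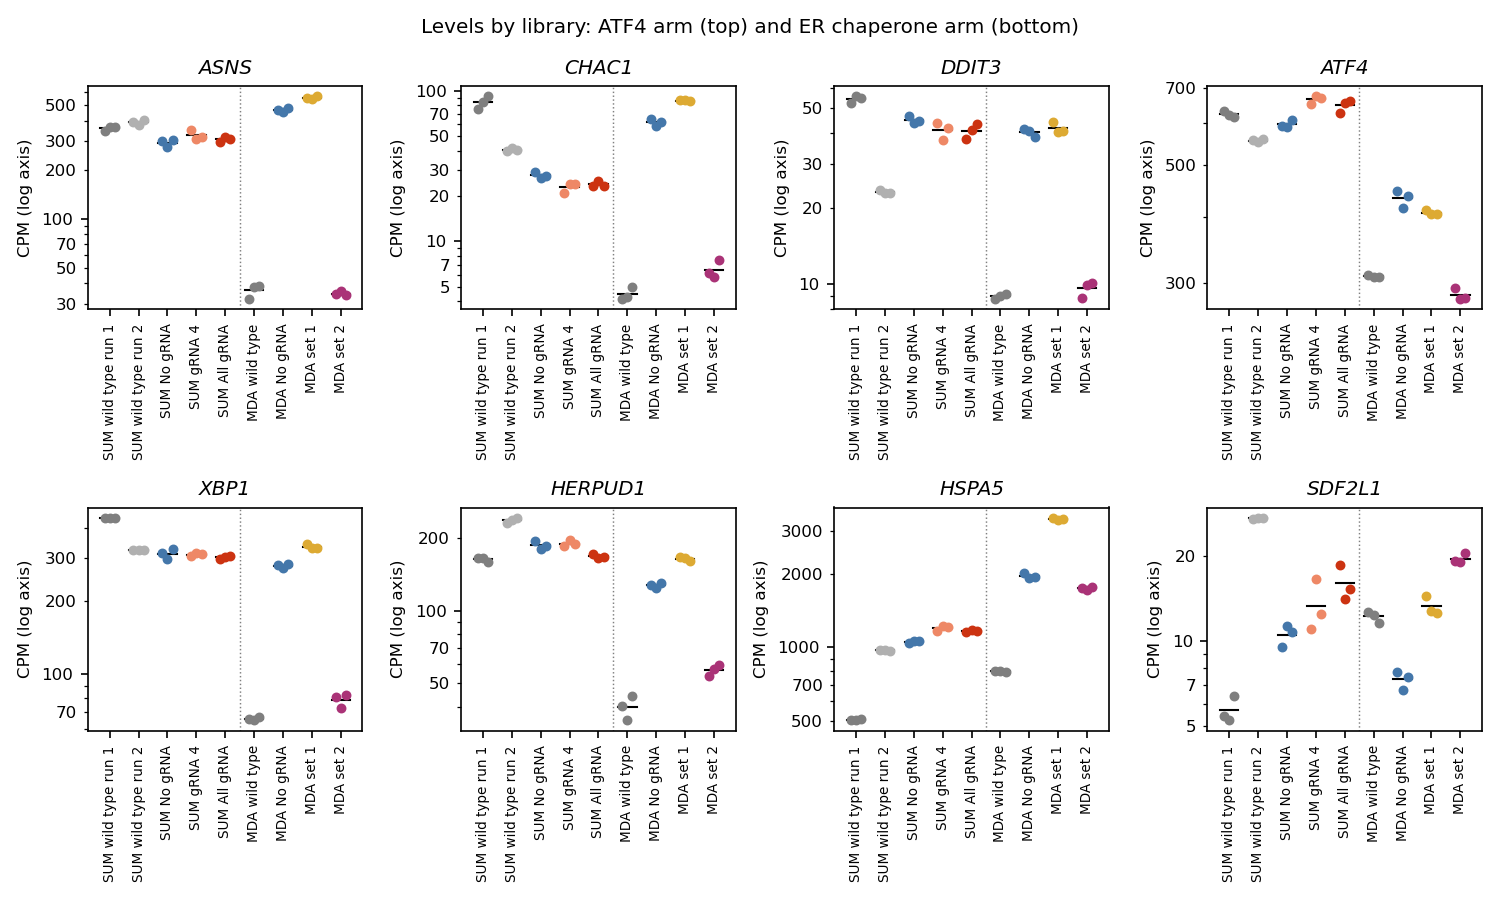
Level of 8 genes in each library (vertical axis, CPM on a log scale; horizontal axis, the 9 groups, with SUM and MDA short for SUM159 and MDA-MB-231); points are libraries and black bars group means. ASNS, CHAC1 and DDIT3 are low in MDA-MB-231 wild type and set 2 and high in No gRNA and set 1, XBP1 and HERPUD1 share that order, HSPA5 stays high in set 2, and SDF2L1 is highest there among the MDA-MB-231 groups.

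Set 1 differed from No gRNA in both directions over the ATF4 arm, mostly by small amounts, with NUPR1, PSPH and DDIT4 falling most. Of the arm's 20 tested genes, 5 rose and 7 fell in set 1, where 20.4% and 17.3% of all genes did, and the median log2 fold change was −0.084. TREAT called 0 of them in either direction, with 0 at an unadjusted TREAT p under 0.05, and edgeR's and DESeq2's tests against a 2-fold change also called 0, where TREAT called 1.47% of all genes. Against wild type, 19 of the 20 rose in set 1 and 14 were called higher, where 29.6% of all genes rose and 5.04% were called. In set 2 against wild type, 10 rose and 4 fell, where 17.8% and 18.5% of all genes did, and 0 were called by TREAT, against 1.44% of all genes. The direction of several set 1 and set 2 changes thus depends on the control. Fold changes against wild type are given among the processing alternatives for some of these genes, and other genes of the arms are named there.

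These comparisons share the No gRNA or the wild type libraries, so their values are not independent of each other. No gRNA against wild type and set 2 against set 1 have no library in common. All 20 ATF4 arm genes tested rose in the former and fell in the latter, and so did 9 of the 13 ER chaperone arm genes, where 17.0% of all 15721 genes tested did so. By TREAT the numbers were 11 of 20 and 3 of 13, where 0.922% of all genes were called higher and then lower. NUPR1, at or near the floor of 3 counts in wild type and set 2, is among the 20 and the 11. In set 2 against set 1, 11 of the 20 ATF4 arm genes, NUPR1 included, were called lower, where 1.86% of all genes were. The median of the arm was −1.49. ASNS reached −3.98 ± 0.065 there and CHAC1 −3.72 ± 0.10. The labels name guides for both sets, and they give nothing else that separates set 1 from set 2.

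**Figure D3:**
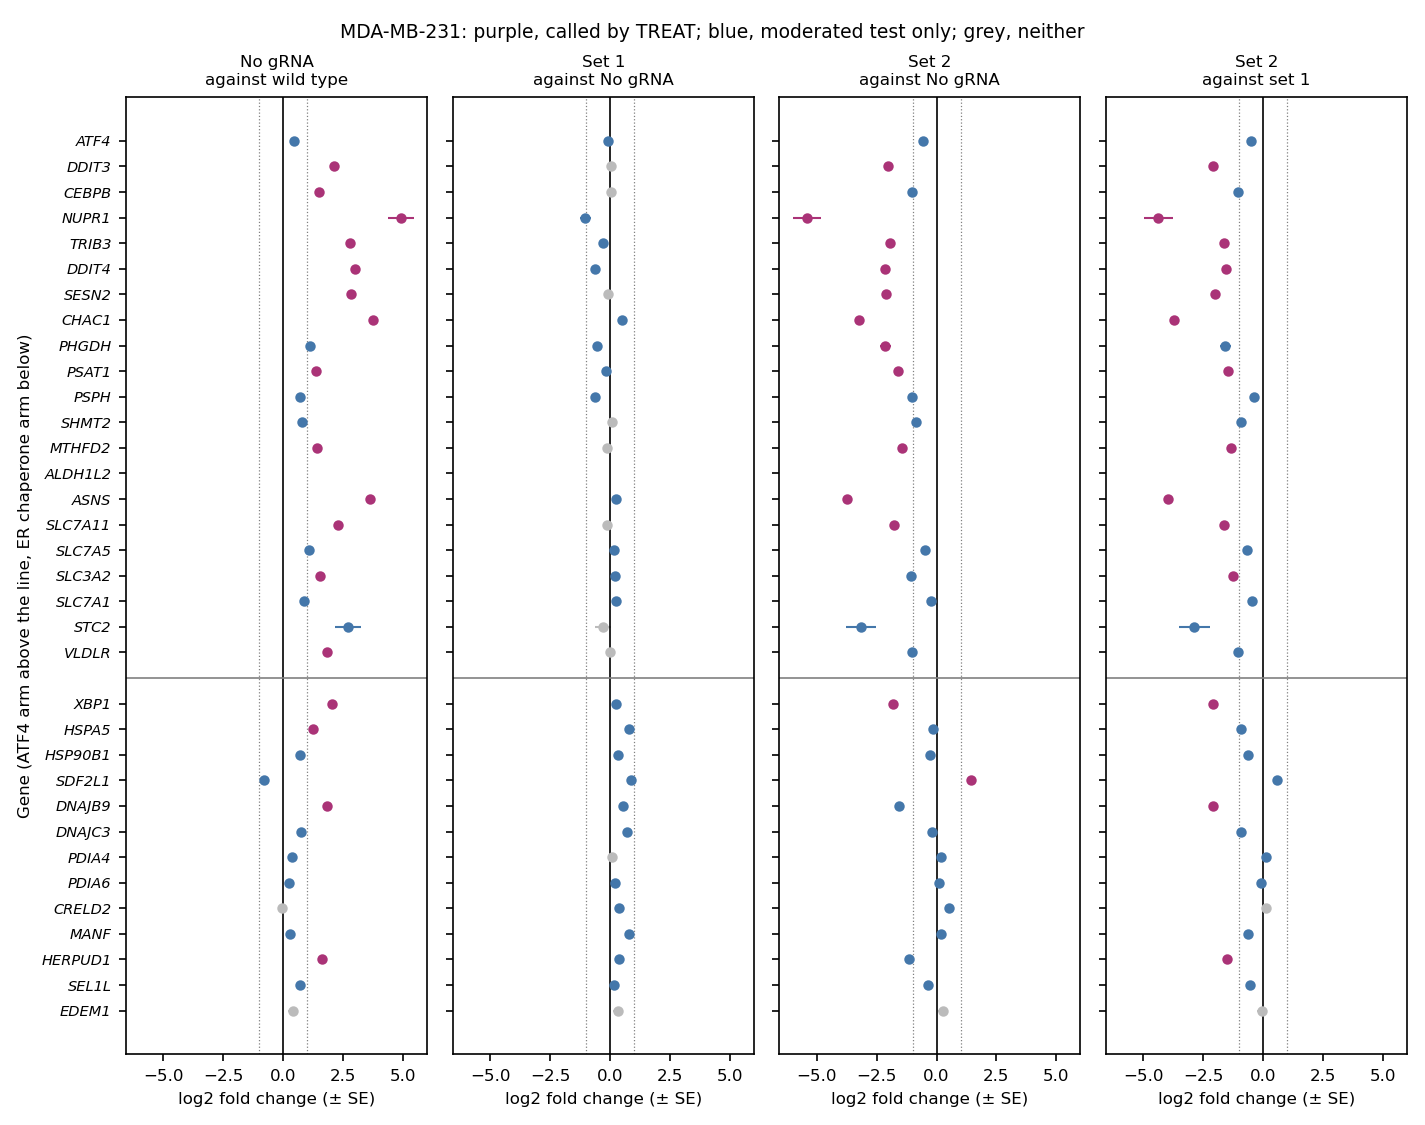
Log2 fold change of each gene (horizontal axis, points ± SE) in 4 MDA-MB-231 comparisons; vertical axis, genes, with the ATF4 arm above the grey line and the ER chaperone arm below it, and dotted lines at −1 and 1. Purple points were called by TREAT, blue points passed the moderated test only and grey points passed neither; NUPR1 rests on libraries at or near the floor of 3 counts in the comparisons with wild type and set 2.

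The ER chaperone arm did not move as one block. Of its 13 genes, 10 rose and 1 fell in No gRNA against wild type, where 26.2% and 27.6% of all genes did. The median log2 fold change was 0.70, and HSPA5, XBP1, HERPUD1 and DNAJB9 were called higher, where 2.33% of all genes were. In set 2 against No gRNA, 5 rose and 7 fell, where 27.3% and 25.1% of all genes did. There XBP1 was called lower and SDF2L1 higher, where 2.40% and 1.74% of all genes were. In set 1 against No gRNA, 11 rose and 0 fell, where 20.4% and 17.3% of all genes did, the median being 0.37. TREAT, edgeR and DESeq2 called 0 of them (0 at an unadjusted TREAT p under 0.05), where TREAT called 1.47% of all genes.

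XBP1, the transcription factor of the IRE1 branch, followed the ATF4 arm. It stood at 65.5, 64.8 and 66.7 CPM in the wild type libraries, 281, 274 and 284 CPM in No gRNA, 344, 330.5 and 329 CPM in set 1 and 80.9, 73.1 and 82.5 CPM in set 2. The wild type and set 2 libraries were low, the No gRNA and set 1 libraries high, and no set 2 library overlapped with No gRNA. It was called higher in No gRNA against wild type (2.04 ± 0.047, adjusted p = 4.59e-11, limma) and called lower in set 2 against No gRNA (−1.81 ± 0.045, adjusted p = 8.63e-11).

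HSPA5 encodes BiP, the main ER chaperone and a regulator of the sensors. It stood at 803, 802 and 789.7 CPM in the wild type libraries, 2019, 1926 and 1952 CPM in No gRNA, 3414, 3333 and 3386 CPM in set 1 and 1759, 1714 and 1774 CPM in set 2. Every set 1 library was above every No gRNA library, and set 2 lay just below No gRNA and well above wild type. HSPA5 was called higher in No gRNA against wild type (1.25 ± 0.025, adjusted p = 1.32e-11, limma), rose in set 1 against No gRNA (0.79 ± 0.017, adjusted p = 7.27e-11) and fell slightly in set 2 against No gRNA (−0.15 ± 0.020, adjusted p = 9.23e-05).

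SDF2L1, a component of the ER chaperone complexes, went the other way. It stood at 12.7, 12.3 and 11.6 CPM in the wild type libraries, 7.76, 6.68 and 7.47 CPM in No gRNA, 14.4, 12.7 and 12.5 CPM in set 1 and 19.2, 19.0 and 20.4 CPM in set 2. No gRNA was the lowest group and set 2 the highest, without overlap between either of them and the rest. SDF2L1 fell in No gRNA against wild type (−0.79 ± 0.10, adjusted p = 5.42e-05, limma), rose in set 1 against No gRNA (0.86 ± 0.10, adjusted p = 5.98e-05) and was called higher in set 2 (1.44 ± 0.097, adjusted p = 2.75e-07).

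Among the other chaperones and co-chaperones, HSP90B1 (GRP94) rose in No gRNA against wild type (0.70), rose in set 1 (0.34) and fell in set 2 against No gRNA (−0.28). DNAJC3, an inhibitor of PERK and BiP co-chaperone, gave 0.74, 0.71 and −0.20 in the same 3 comparisons and passed the moderated test in each. DNAJB9, a BiP co-chaperone that restrains IRE1, stood at 14.9, 14.3 and 10.2 CPM in the wild type libraries, 56.4, 47.4 and 39.1 CPM in No gRNA, 67.9, 68.4 and 67.3 CPM in set 1 and 18.3, 14.3 and 14.9 CPM in set 2. It sided with XBP1, being called higher in No gRNA against wild type (1.81 ± 0.17) and called lower in set 2 against set 1 (−2.09 ± 0.16), and in set 2 against No gRNA it fell (−1.55 ± 0.16), called by edgeR and DESeq2 but not by TREAT.

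The disulfide isomerases changed little. PDIA4 rose by 0.36 in No gRNA against wild type and by 0.20 in set 2 against No gRNA, and PDIA6 by 0.23 and 0.10. The small secretory-pathway proteins CRELD2 and MANF were above No gRNA in both sets. MANF, a secreted protein that binds BiP, stood at 58.4, 65.0 and 52.4 CPM in the wild type libraries, 73.1, 71.3 and 72.3 CPM in No gRNA, 121, 129 and 126 CPM in set 1 and 80.9, 78.6 and 83.3 CPM in set 2, and it rose by 0.80 in set 1 and by 0.19 in set 2. CRELD2 rose by 0.38 in set 1 and 0.52 in set 2.

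The degradation genes split. HERPUD1, which organises ER-associated degradation, stood at 40.3, 35.1 and 44.4 CPM in the wild type libraries, 128, 124 and 130.1 CPM in No gRNA, 166, 165 and 161 CPM in set 1 and 53.8, 57.2 and 59.7 CPM in set 2, so that set 2 was near wild type and set 1 above No gRNA without overlap. Its log2 fold change was 1.62 ± 0.069 and called in No gRNA against wild type, and −1.14 ± 0.064 and not called in set 2 against No gRNA. SEL1L, the adaptor of the HRD1 ligase, rose in No gRNA against wild type (0.70) and fell in set 2 (−0.36). EDEM1, a mannosidase-like factor that hands glycoproteins to degradation, passed the test in none of the 4 comparisons, with 0.39, 0.33, 0.27 and −0.055.

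The ER stress response element joins CCAAT and CCACG 9 bases apart, and its shorter form, ERSE-II, joins ATTGG and CCACG 1 base apart. Both were searched on both strands of the same RefSeq windows. The former was found in 5 of 13 ER chaperone arm genes (38.5%; XBP1, HSPA5, HSP90B1, PDIA6 and CRELD2) and in 0.0769% of all 35116 windows, and the latter in 2 of 13 (15.4%; SDF2L1 and HERPUD1) and in 0.0541% of all windows. As above, genes are counted in the arm and windows over the whole. Neither was found in the windows of the 16 ATF4 arm genes. TGACGTGG, the core of the element bound by XBP1 and ATF6, was found in 0.729% of all windows and in none of either arm. The 4 genes whose levels parted in set 2 are shown, with the matching stretch in capitals, read 5′ to 3′ on the gene's strand: XBP1 and HERPUD1 near wild type, HSPA5 still high and SDF2L1 above No gRNA. The XBP1 match lies at −52 to −34 from the start site, in chr22:28800597-28800626 on the minus strand, and the HSPA5 match at −66 to −48, in chr9:125241385-125241414 on the minus strand. HERPUD1 holds both a CARE match, at −176 to −169 in chr16:56931955-56931984 on the plus strand, and an ERSE-II match, at −117 to −107 in chr16:56932016-56932045. The SDF2L1 match lies at −188 to −178, in chr22:21642105-21642134 on the plus strand, and like the CARE match of HERPUD1 reads on the opposite strand.
XBP1 (ERSE): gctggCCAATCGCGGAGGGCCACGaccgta
HSPA5 (ERSE): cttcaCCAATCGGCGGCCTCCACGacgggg
HERPUD1 (CARE): gacgcggcgggTTGCATCAgcccgtgccca
HERPUD1 (ERSE-II): cggacgccgATTGGGCCACGttgggagagt
SDF2L1 (ERSE-II): cctcggaagCGTGGACCAATcaaaaccctc

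Other genes of the pathway, outside the 34, were read from named lists. The sensors themselves changed at the mRNA level in MDA-MB-231. ERN1, which encodes IRE1, stood at 22.3, 16.5 and 25.5 CPM in the wild type libraries, 117, 90.6 and 88.4 CPM in No gRNA, 109, 115 and 119 CPM in set 1 and 20.1, 25.8 and 25.3 CPM in set 2, called higher in No gRNA against wild type (2.15 ± 0.16) and called lower in set 2 (−2.03 ± 0.16). PPP1R15A, also known as GADD34, brings a phosphatase to eIF2alpha and so ends the PERK signal, and it stood at 283, 261 and 267 CPM in the wild type libraries, 802, 766 and 769 CPM in No gRNA, 1374, 1365 and 1358 CPM in set 1 and 240.1, 242 and 239 CPM in set 2. Set 1 was highest and set 2 lowest, with log2 fold changes against No gRNA of 0.81 ± 0.021 and −1.67 ± 0.031. EIF2AK3, the gene of PERK, rose in No gRNA against wild type (1.18) and fell in set 2 (−0.64), and ATF6 moved by 0.32 and −0.27. Of the 11 sensor and eIF2alpha genes, 4 rose and 6 fell in set 2, where 27.3% and 25.1% of all genes did.

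The aminoacyl-tRNA synthetases, which charge tRNAs and many of which are ATF4 targets, followed the ATF4 arm. All 12 rose in No gRNA against wild type and all 12 fell in set 2 against No gRNA, between −0.38 for IARS1 and −1.56 for SARS1, and 3 (SARS1, AARS1 and YARS1) were called lower. Over all genes 26.2% rose in the former comparison, and 25.1% fell and 2.40% were called lower in the latter. TGATGNAA was found in 7 of the 10 synthetase genes with a window (70.0%). Of 10 further amino acid genes tested in these comparisons, 9 rose in No gRNA against wild type and 9 fell in set 2, beside the same shares of all genes, and those called lower were the neutral amino acid carrier SLC1A4 (−2.70), the mitochondrial carboxykinase PCK2 (−2.20), the transsulfuration enzyme CTH (−2.86), the glutamine carrier SLC38A2 (−1.33) and the secreted stress factor GDF15 (−3.74). ALDH18A1, of proline synthesis, was the exception and rose in set 2 (0.54). CEBPG and ATF3, bZIP partners of ATF4, were called lower in set 2 (−1.73 and −1.83), although ATF3 had fallen in No gRNA against wild type (−0.88) and risen in set 1 (1.17). ATF5, another bZIP factor of this family, rose in set 2 (0.93).

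Of 16 further ER folding and degradation genes tested, 8 rose and 5 fell in set 2 against No gRNA, where 27.3% and 25.1% of all genes did, and 12 rose in set 1, where 20.4% did. TREAT called 0 of them in either. The lectin chaperone CALR rose by 0.31 in set 2 and the ER oxidase ERO1A by 0.70, whereas ERO1B fell by 0.84 and EDEM2 fell by 0.76.

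The heat shock chaperones of the cytosol and mitochondria, many of which answer to HSF1, were read for comparison and moved the opposite way. All 9 that were tested fell in No gRNA against wild type, where 27.6% of all genes did, and 7 rose and 1 fell in set 2 against No gRNA, where 27.3% and 25.1% did. HSPA8, the constitutive HSP70 of the cytosol, stood at 3923, 3735 and 3752 CPM in the wild type libraries, 454, 504 and 491 CPM in No gRNA, 652, 648 and 609.6 CPM in set 1 and 2450.1, 2432 and 2515 CPM in set 2. Wild type was highest, set 2 next and No gRNA lowest, with log2 fold changes of −3.03 ± 0.042 in No gRNA against wild type and 2.37 ± 0.044 in set 2 against No gRNA, both called. The mitochondrial co-chaperonin HSPE1 (1.65), the co-chaperone DNAJA1 (1.51) and HSP90AA1 (1.22) were also called higher in set 2, where 1.74% of all genes were, while HSPB1, a small heat shock protein, was lower (−0.34). Across the library-disjoint comparisons, 7 of 9 fell in No gRNA against wild type and rose in set 2 against set 1, where 17.6% of all genes did. HSPA1A and HSPA1B, near-identical copies that share reads, were not tested, being under the floor of 3 counts in every library except for HSPA1B in MDA-MB-231 wild type replicate 3 (2.15 CPM).

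**Figure D4:**
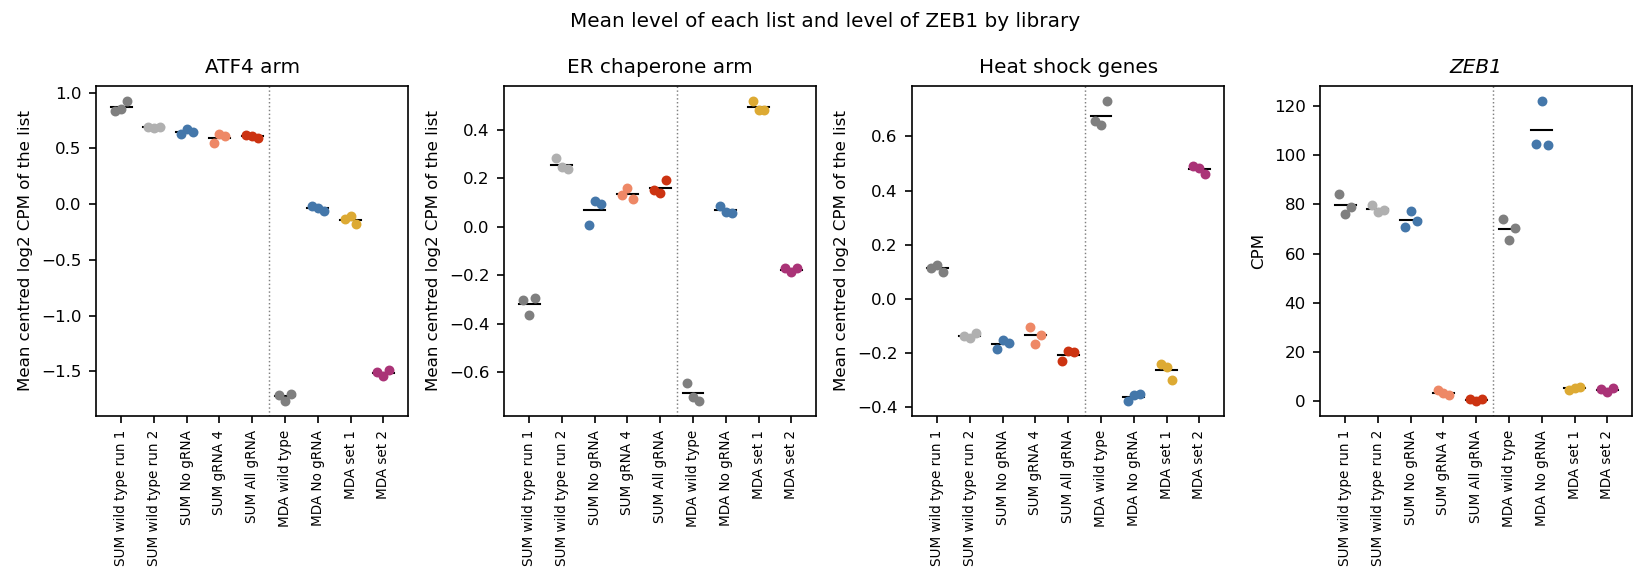
Mean level of each list per library, as log2(CPM + 2) centred on each gene's mean over the 27 libraries (vertical axes of the first 3 panels), and ZEB1 in CPM; horizontal axes, the 9 groups, points libraries and bars group means. In MDA-MB-231 the ATF4 arm is low in wild type (−1.76 to −1.70) and set 2 (−1.54 to −1.49) and near 0 in No gRNA and set 1, the ER chaperone arm is highest in set 1, and the heat shock genes are high where the ATF4 arm is low, whereas ZEB1 is low in both sets.

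In SUM159 the mean centred log2 level of the ATF4 arm was 0.54 to 0.93, against −0.02 at most in MDA-MB-231. NUPR1, STC2 and PHGDH, low in MDA-MB-231, weigh on that mean, and not every gene shared its order. VLDLR and PSPH were lower in every SUM159 library than in every MDA-MB-231 library, ASNS averaged 553 CPM in set 1 and 306 CPM in All gRNA, and CHAC1 averaged 86.2 and 23.9 CPM. In All gRNA against No gRNA, 2 of 21 rose and 4 fell, where 5.93% and 4.89% of all genes did, and in gRNA 4 against No gRNA 3 rose and 3 fell, where 6.11% and 4.91% did. TREAT called 0 of them in either comparison, where it called 0.396% and 0.390% of all genes. At an unadjusted TREAT p under 0.05 there were 1 and 2 genes, and edgeR and DESeq2 each called 0 in All gRNA and 1, VLDLR, in gRNA 4. The median log2 fold changes of the arm were −0.10 and −0.024. Both comparisons share the No gRNA libraries.

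ASNS, so variable in MDA-MB-231, stood at 298, 275 and 304 CPM in No gRNA, 352, 309 and 315 CPM in gRNA 4 and 294, 317 and 308 CPM in All gRNA. All gRNA overlapped with both other groups and gRNA 4 lay just above No gRNA, and the log2 fold changes were 0.066 ± 0.061 in All gRNA (adjusted p = 0.552, limma) and 0.14 ± 0.061 in gRNA 4 (adjusted p = 0.167). DDIT3 stood at 46.5, 43.8 and 44.7 CPM in No gRNA, 43.6, 37.4 and 41.9 CPM in gRNA 4 and 37.7, 40.9 and 43.5 CPM in All gRNA, and gave −0.15 ± 0.078 and −0.15 ± 0.078 in the same order, with adjusted p of 0.266 and 0.273. ATF4 stood at 595, 590.0 and 609 CPM in No gRNA, 654, 676 and 669 CPM in gRNA 4 and 628, 657 and 662 CPM in All gRNA, and its log2 fold changes were 0.12 ± 0.034 in All gRNA (adjusted p = 0.0459) and 0.15 ± 0.034 in gRNA 4 (adjusted p = 0.0151). The former no longer passed on leaving out any of 5 of the 6 libraries (All gRNA replicates 2 and 3 and each No gRNA replicate), with adjusted p up to 0.129, and the latter on leaving out any of 3 (gRNA 4 replicates 2 and 3 and No gRNA replicate 2), with adjusted p up to 0.0563. With library totals without TMM neither passed (adjusted p = 0.149 and 0.0561), and with DESeq2 size factors the former did not (adjusted p = 0.0501).

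Of the ATF4 arm genes past the test in either comparison, VLDLR, PHGDH and NUPR1 reached the largest changes, all in gRNA 4. VLDLR stood at 1.66, 1.66 and 1.56 CPM in No gRNA, 7.48, 5.85 and 9.42 CPM in gRNA 4 and 6.72, 5.94 and 6.47 CPM in All gRNA. All ZEB1-targeted libraries were above all No gRNA libraries, with log2 fold changes of 1.95 ± 0.29 in All gRNA (adjusted p = 0.00106, limma) and 2.17 ± 0.28 in gRNA 4 (adjusted p = 0.000409). NUPR1 stood at 228, 223 and 242 CPM in No gRNA, 118, 117 and 110.0 CPM in gRNA 4 and 143, 157 and 142 CPM in All gRNA, and fell in both, by 0.65 (adjusted p = 1.42e-05) and 1.02 (adjusted p = 4.73e-07). In wild type run 1 it stood at 139, 146 and 151 CPM, overlapping All gRNA, and against that control All gRNA gave 0.011 (adjusted p = 0.888). ALDH1L2, at 0.457, 2.79 and 0.269 CPM in No gRNA, 0.278, 1.06 and 1.24 CPM in gRNA 4 and 0.158, 0.224 and 0.323 CPM in All gRNA, gave −1.51 ± 0.98 in All gRNA with overlapping libraries and did not pass (adjusted p = 0.373).

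PHGDH separated the single guide from the 4 guides. It stood at 180.3, 196 and 195 CPM in No gRNA, 80.3, 92.0 and 94.1 CPM in gRNA 4 and 157, 159.5 and 160.1 CPM in All gRNA. The gRNA 4 libraries were lowest, the All gRNA libraries lay between them and No gRNA, and no groups overlapped. The log2 fold change against No gRNA was −1.11 ± 0.062 in gRNA 4 (adjusted p = 4.09e-07, limma) and −0.26 ± 0.056 in All gRNA (adjusted p = 0.0115). In wild type run 1 PHGDH stood at 130.7 to 137.8 CPM, above gRNA 4 and below All gRNA without overlap. The direction in All gRNA thus turned with the control. All gRNA against gRNA 4 gave 0.85 ± 0.063 (adjusted p = 6.96e-05). In this last comparison 2 ATF4 arm genes passed, PHGDH and NUPR1 (0.36 ± 0.060, adjusted p = 0.0174), where 0.561% of all genes rose. Only 1 of them passed on leaving out All gRNA replicate 2, gRNA 4 replicate 2 or gRNA 4 replicate 3. SLC7A5 stood at 1221, 1329.7 and 1267 CPM in No gRNA, 921, 1043 and 1023 CPM in gRNA 4 and 1064, 979.9 and 1001 CPM in All gRNA and fell in both ZEB1-targeted groups, by 0.33 in All gRNA and 0.36 in gRNA 4.

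Of the 13 ER chaperone arm genes, HSPA5, SDF2L1 and CRELD2 rose and 0 fell in SUM159 All gRNA against No gRNA, where 5.93% and 4.89% of all genes did. In gRNA 4 HSPA5 rose and SEL1L fell, where 6.11% and 4.91% did. HSPA5 stood at 1039, 1058 and 1064 CPM in No gRNA, 1171, 1219.8 and 1209 CPM in gRNA 4 and 1152, 1184 and 1165 CPM in All gRNA, so that both targeted groups were above No gRNA without overlap, with log2 fold changes of 0.15 ± 0.028 (adjusted p = 0.0058, limma) and 0.18 ± 0.028 (adjusted p = 0.00153). SDF2L1 stood at 9.52, 11.3 and 10.7 CPM in No gRNA, 11, 16.5 and 12.4 CPM in gRNA 4 and 18.6, 14.1 and 15.3 CPM in All gRNA, with gRNA 4 and No gRNA overlapping. Its rise in All gRNA (0.60 ± 0.16, adjusted p = 0.0333) no longer passed on leaving out any library but All gRNA replicate 2. CRELD2 stood at 15.3, 18.5 and 16.3 CPM in No gRNA and 25.0, 20.9 and 22.4 CPM in All gRNA, without overlap. Its rise (0.45 ± 0.10, adjusted p = 0.0157) no longer passed without All gRNA replicate 1, No gRNA replicate 1 or No gRNA replicate 3, so that 1 gene of the arm passed without No gRNA replicate 1 or 3. SEL1L stood at 168, 182 and 192 CPM in No gRNA and 127, 164 and 132 CPM in gRNA 4. Its fall there (−0.38 ± 0.093, adjusted p = 0.0215) no longer passed without gRNA 4 replicate 1 or 3 or No gRNA replicate 2 or 3, leaving 1 gene, and against wild type run 1 its direction turned (0.23, adjusted p = 0.0653). XBP1 stood at 315, 296 and 326 CPM in No gRNA, 305, 315 and 311 CPM in gRNA 4 and 298, 302 and 307 CPM in All gRNA, the groups overlapping, and gave −0.048 and −0.019 (adjusted p = 0.517 and 0.832), and 0 genes of this arm were called by TREAT, edgeR or DESeq2 in either comparison (0 at an unadjusted TREAT p under 0.05).

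No gRNA against wild type gave another pattern in SUM159 than in MDA-MB-231. Here 4 of the 21 ATF4 arm genes rose and 11 fell, where 42.9% of all genes did either, and 3 were called lower, where 0.489% were. CHAC1 stood at 76.0, 84.4 and 92.2 CPM in wild type run 1 and 29.1, 26.3 and 27.1 CPM in No gRNA. SESN2 stood at 146, 142 and 149.7 and 59.3, 58.3 and 59.9 CPM, and STC2 at 595, 575 and 650.4 and 205, 252 and 235 CPM. For these 3 genes No gRNA was lower in every library, with log2 fold changes of −1.62 ± 0.088, −1.31 ± 0.060 and −1.41 ± 0.071. In the ER chaperone arm 9 of 13 rose and 2 fell, HSPA5 going from 501, 501 and 509.6 CPM in wild type run 1 to the No gRNA level above (1.06 ± 0.030) while XBP1 fell by 0.50 from 438, 436 and 439.8 CPM. ATF4, at 633, 622 and 617 CPM in wild type run 1, differed by −0.070 ± 0.033 (adjusted p = 0.115, limma), and DDIT3, at 52.6, 55.9 and 54.8 CPM, fell by 0.28. Against wild type run 1, 15 ATF4 arm and 11 ER chaperone arm genes passed in All gRNA, where 48.7% of all genes did, and 17 and 10 in gRNA 4, where 46.8% did. TREAT called 4 and 5 of the 34 genes, where it called 2.30% and 2.46% of all genes. The share of counts from ribosomal protein genes was 8.07 to 8.52% in No gRNA and 5.71 to 5.88% in wild type run 1, that of the 100 most abundant genes was 22.4 to 22.7% and 19.0 to 19.2%, and their part in the result was not tested. The vector, dCas9-KRAB, puromycin selection and clone differ together between No gRNA and wild type in both lines and cannot be told apart.

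**Figure D5:**
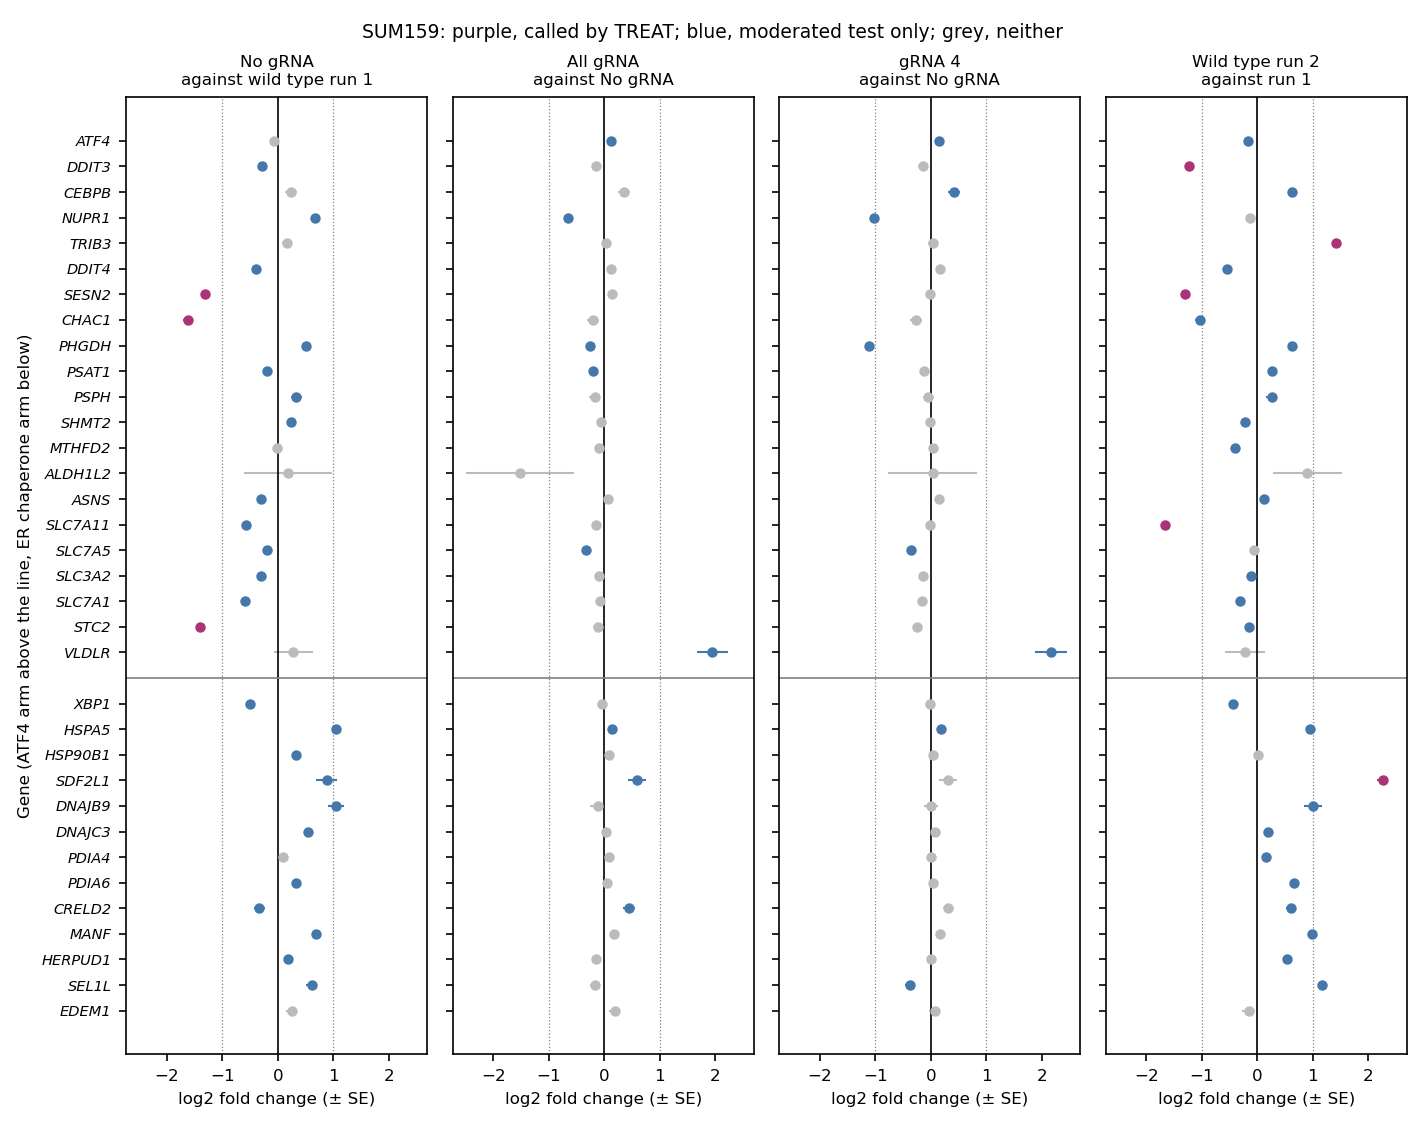
Log2 fold change of each gene (horizontal axis, points ± SE) in 4 SUM159 comparisons; vertical axis, genes, with the ATF4 arm above the grey line and the ER chaperone arm below it, and dotted lines at −1 and 1. Purple points were called by TREAT, blue points passed the moderated test only and grey points passed neither; most genes sit near 0 in the panels of All gRNA and gRNA 4, VLDLR excepted.

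The SUM159 wild type cells, sequenced in both runs, show how far these genes vary with no transduction. In run 2 against run 1, 6 of 21 ATF4 arm genes rose and 11 fell, where 58.8% of all genes did either, and 4 were called, where 6.61% were. TRIB3 stood at 282, 295 and 311 CPM in run 1 and 786, 784 and 811 CPM in run 2 (1.42 ± 0.036), whereas SLC7A11 stood at 959, 1023 and 967 and 316, 323 and 296 CPM (−1.66 ± 0.049). DDIT3 and SESN2 were also called lower in run 2 (−1.23 and −1.31), DDIT3 by TREAT and edgeR but not by DESeq2. In the ER chaperone arm 10 of 13 rose in run 2, led by SDF2L1, at 5.42, 5.23 and 6.36 CPM in run 1 and 26.9, 27.2 and 27.3 CPM in run 2 (2.26 ± 0.10). Culture and sequencing run cannot be told apart in this comparison. The share of counts from mitochondrial genes differed with it, at 1.84 to 1.87% in run 2 and 2.99 to 3.43% in run 1, as did that from ribosomal protein genes, at 9.22 to 9.53% and 5.71 to 5.88%, and their part in the result was not tested.

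Between the lines, both sequenced in run 2, MDA-MB-231 wild type was lower than SUM159 wild type in 18 of 21 ATF4 arm genes, where 37.3% of all genes were, and 15 were called lower, where 13.2% were. ASNS stood at 32.2, 38.2 and 38.4 CPM in MDA-MB-231 and 389.8, 377 and 405 CPM in SUM159, and TRIB3 at 23.6, 22.9 and 25.4 and 786, 784 and 811 CPM. The 2 genes that were higher, where 37.5% of all genes were, were PSPH (0.65) and VLDLR, the latter called (3.54 ± 0.30). In the ER chaperone arm 10 of 13 genes were lower in MDA-MB-231, XBP1, HERPUD1, DNAJB9 and EDEM1 being called. The lines grew in different media, which cannot be told apart from the line.

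The response to ZEB1 targeting was compared between the lines in one fit, as the mean of both targeted groups against No gRNA in MDA-MB-231 minus the same in SUM159. Of 21 ATF4 arm genes, 18 had a lower response in MDA-MB-231 and 1 a higher one, where 13.0% and 12.4% of all genes did, and ASNS (−1.86 ± 0.068), DDIT4 (−1.55 ± 0.076), VLDLR (−2.59 ± 0.31) and NUPR1 (−2.40 ± 0.29) were called lower, where 0.663% of all genes were. This mean averages set 1 and set 2, which stood apart, so the values describe neither set by itself, and that of NUPR1 rests in part on set 2 libraries at the floor. In the ER chaperone arm 4 of 13 had a higher and 3 a lower response, and TREAT called 0 (0 at an unadjusted TREAT p under 0.05).

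Across the 27 libraries the ATF4 arm genes rose and fell together, with a median Pearson r of 0.767 over their 210 pairs, against 0.273 over the 78 pairs of the ER chaperone arm and 0.144 over the 273 pairs between the arms. Within groups the medians were 0.0299, 0.0977 and 0.0182, so the likeness lay in the differences between groups. These values describe libraries that share lines and runs and carry no test. Within MDA-MB-231, the share of counts from mitochondrial genes was 1.40 to 1.69% in the ZEB1-targeted sets and 1.97 to 2.43% in No gRNA and wild type, and that from ribosomal protein genes was 5.68 to 5.76% in wild type and 4.41 to 4.69% in the others. Genes with over 10 counts numbered 15004 to 15107 in No gRNA, 14571 to 14777 in set 1, 14440 to 14607 in wild type and 14166 to 14389 in set 2. The part of these measures in the results was not tested.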

How the data were processed

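The authors extracted total RNA, sequenced 50 bp single-end reads on a HiSeq2500, quantified them with Salmon on GRCh38 and imported them with tximport. The deposited table holds estimated counts per gene, scaled by library size and transcript length, which need not be whole numbers, for 57165 gene identifiers in 27 libraries, and 56347 of the identifiers were paired with a symbol. Library totals ran from 15461200 to 21473757 estimated counts, so that a floor of 3 counts per library limits only the lowest genes. CPM values were scaled by TMM over all 27 libraries.

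Tests used the deposited estimated counts, unrounded, in voom with limma 3.58.1 (edgeR 4.0.16 for TMM and filterByExpr at a minimum count of 10, R 4.3.3; 0.5 added to each count). This follows the study's methods, where quantified counts went through voom, limma and TREAT. Fits held SUM159 run 1 (12 libraries, 15147 genes), MDA-MB-231 (12 libraries, 15721 genes), the wild types (9 libraries, 15633 genes) and, for the interaction, 24 libraries (17182 genes). P-values were two-sided and Benjamini-Hochberg adjusted over all genes of a fit. TREAT tested against a log2 fold change of 1, and the threshold was 0.05. The steps were tested on simulated counts. edgeR's quasi-likelihood test and DESeq2 1.42.0 on rounded counts were among the alternatives, with DESeq2 size factors, library totals without TMM, no filter, sample quality weights, a replicate block, wild type as the control, both sets as one group, all 15 SUM159 libraries in one fit, and each library left out in turn.

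The 34 genes, the lists of other pathway, heat shock and marker genes, and the tests were chosen with earlier results of these data known. Values in every library are given for ATF4, DDIT3, XBP1 and HSPA5, for members called by TREAT in a comparison with No gRNA or of No gRNA with wild type, and for the 3 members of each arm with the largest change in a comparison with No gRNA among those past the moderated test. EIF2AK3, ATF3, PPP1R15A, ERN1 and ATF6 and called genes of the other lists are named, and further genes given with 1 value were chosen after their values were seen. Promoter windows came from RefSeq (GRCh38.p14). Protein sequences were not used here.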

Additional observations from a re-analysis of the deposited data

Results flagged for a closer look

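The results listed here are those where the response to ZEB1 targeting differed between the lines by the interaction term of the limma fit (mean of both targeted groups against No gRNA, MDA-MB-231 minus SUM159, adjusted p under 0.05). Of the ATF4 arm, 19 genes had a different response, 18 of them lower in MDA-MB-231. Of the ER chaperone arm, 7 genes had a different one, in both directions. Over all genes 13.0% had a lower and 12.4% a higher response. By TREAT, the log2 difference was −1.859 for ASNS, −1.547 for DDIT4, −2.587 for VLDLR and −2.398 for NUPR1, where 0.663% of all genes were called lower. VLDLR rose in SUM159 and fell in set 2, whereas ASNS did not pass the test in SUM159. Line, medium and sequencing run coincide in these groups and cannot be told apart, and their part in the differences was not tested. The MDA-MB-231 mean covers set 1 and set 2, which differed from each other, and NUPR1 was at the floor of 3 counts in set 2.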

How the results depend on the processing

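The counts of genes that passed in No gRNA against wild type, set 2 against set 1, the SUM159 run comparison, the line comparison and the interaction stayed within 1.5 times their value under every alternative run. The control mattered most. Against wild type, 19 ATF4 arm genes passed in set 1, all of them rising, where 29.6% of all genes rose. Of both arms together, 19 genes were called higher in set 1, where 5.04% of all genes were. In set 2, 0 were called, where 1.44% of all genes were. In SUM159, 15 ATF4 arm and 11 ER chaperone arm genes passed in All gRNA (4 called), where 48.7% of all genes passed and 2.30% were called, and 17 and 10 in gRNA 4 (5 called), where 46.8% and 2.46% did. Among genes followed by name in a comparison, these changes reversed against wild type, given as log2 fold changes. In set 2 they were CHAC1 (0.49), DDIT3 (0.071), DDIT4 (0.83), DNAJB9 (0.26), HSPA5 (1.10), SESN2 (0.74), SLC7A11 (0.52), TRIB3 (0.84) and XBP1 (0.23). In set 1 they were ATF4 (0.35), DDIT4 (2.36), PSPH (0.059) and NUPR1 (3.87). The NUPR1 value is a fitted one that depends on wild type libraries at or near the floor and measures no size. In SUM159 they were NUPR1 in All gRNA (0.011) and SEL1L in gRNA 4 (0.23). Other changes were not followed by gene. By mean level, TRIB3 (140 against 23.9 CPM), PSAT1 (382 against 161 CPM) and PHGDH (6.35 against 4.25 CPM) in set 1 were also above wild type. So were CEBPB, VLDLR, SLC3A2, SLC7A5, SLC7A1, HERPUD1, DNAJC3, HSP90B1 and SEL1L in set 2, and PHGDH in SUM159 All gRNA. Each had fallen against No gRNA. Of the genes followed by name, others kept their direction but no longer passed against wild type. In set 2 they were ASNS (−0.094), MTHFD2 (−0.036) and NUPR1, and in set 1 SDF2L1 (0.068, adjusted p = 0.553). In SUM159 they were CRELD2 in All gRNA (0.12, adjusted p = 0.329) and ATF4 in All gRNA (0.048, adjusted p = 0.256) and gRNA 4 (0.077, adjusted p = 0.0745, limma). A further group passed against wild type but not against No gRNA. It held DDIT3 in set 1 (2.16, adjusted p = 2.43e-09, limma). In SUM159 it held DDIT3 (−0.43 in All gRNA and −0.43 in gRNA 4) and XBP1 (−0.54 and −0.51). With both sets as one group, 4 ATF4 arm and 2 ER chaperone arm genes passed and 0 were called, and DDIT3 (−0.996) and XBP1 (−0.77) reversed against set 1 and HSPA5 (0.32) against set 2. The sets differ from each other, so their spread enters that fit. The share of all genes that passed in it was not counted, so whether the drop is particular to these genes cannot be told.

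In SUM159, DESeq2 passed 5 ER chaperone arm genes in All gRNA against No gRNA and 1 in All gRNA against gRNA 4, all 15 SUM159 libraries in one fit gave 5 in the former, and edgeR and DESeq2 each called 1 member, VLDLR, in gRNA 4. Leaving out a library gave 1 to 3 ER chaperone arm genes in All gRNA, 1 to 2 in gRNA 4, and 1 to 2 ATF4 arm genes in All gRNA against gRNA 4. XBP1 in gRNA 4 went from −0.057 to 0.011 in place of −0.019, being above 0 without No gRNA replicate 3, and with library totals without TMM DDIT3 in set 1 was −0.028 in place of 0.054, none of these past the test. Other scaling moved the median of all genes by less than 0.1 (log2), but ATF4 no longer passed in SUM159 All gRNA with DESeq2 size factors (adjusted p = 0.0501) or library totals (adjusted p = 0.149), nor in gRNA 4 with library totals (adjusted p = 0.0561, limma). Without the filter on low counts SDF2L1 did not pass in All gRNA (adjusted p = 0.0657). In set 2 against No gRNA, TREAT called 13 members, where 1.74% of all genes were called higher and 2.40% lower. There edgeR and DESeq2 each called 15, DNAJB9 and STC2 being added. The share of all genes that edgeR and DESeq2 passed or called was not counted in any comparison. Low counts limit NUPR1, STC2 and PHGDH in MDA-MB-231.

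Replicate numbers did not pair the libraries: same-numbered deviations correlated at −0.168 to 0.108, and in 1 of 14 comparisons did every library correlate best with its own number. With a replicate block, 1 ATF4 arm gene passed in All gRNA against gRNA 4, and ATF4 (adjusted p = 0.0838) and SDF2L1 (adjusted p = 0.0693, limma) no longer passed in SUM159 All gRNA. The block moved no other count by over 1.5 times.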
